A study of Mus musculus with 4 samples.

Results

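The data compared here are 2 messenger RNA libraries of wild-type mouse regulatory T cells (Treg cells), 1 called aTreg and 1 called rTreg in the labels. Each gene was described by its log2 ratio of aTreg over rTreg, and 9680 of the 19044 genes in the deposited table, those averaging 5 CPM or more (counts scaled to library size) over all 4 libraries of the series, were kept. The series profiled Treg cells of spleen and peripheral lymph nodes from untreated mice of 2 genotypes. Foxp3-YFP-Cre mice (WT) express Cre recombinase and a yellow fluorescent protein from the Foxp3 locus, so Cre acts in Foxp3-expressing cells of every group. Ripk1fl/fl Foxp3-YFP-Cre mice (labelled knockout) carry in addition a loxP-flanked gene for RIPK1, a kinase and scaffold of death receptor signalling. Each genotype gave 1 rTreg and 1 aTreg library. What r and a stand for is not spelled out in the labels and is read here as resting and activated. The sources used here give neither the sort gate, nor the age, sex and number of mice, nor whether animals were pooled.

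Treg cells are CD4 T cells that depend on the transcription factor FOXP3 and restrain other immune cells. Resting Treg cells recirculate through lymphoid organs with the help of homing molecules such as the chemokine receptor CCR7, and rely on transcription factors shared with naive T cells. Activated Treg cells, also called effector Treg cells, have met antigen through their T cell receptor, lose these homing molecules, and gain suppressive molecules, inhibitory receptors and receptors for tissues, under factors such as BLIMP1 (Prdm1) and MAF.

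The defining markers of the labelled cell type were present. All 11 measured CD4 T cell and Treg markers were detected in every library, and their summed level was 5170 CPM in WT rTreg and 5650 CPM in WT aTreg. Foxp3 was at 688 CPM in rTreg and 693 in aTreg of WT, and at 619 and 658 CPM in rTreg and aTreg of the KO-labelled genotype, and its log2 ratio in WT was 0.01 (95% counting interval -0.02 to 0.04). Cd44, an adhesion receptor that antigen-experienced T cells carry at high levels, was at 81.2, 119, 68.5 and 95.5 CPM in the same order, which is kept wherever 4 values are given, with both aTreg libraries above both rTreg libraries. Since this surface protein is widely used to sort the 2 states and the gate is not given, its level serves as a check of the labels.

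Depth was between 17588754 and 20868319 counts per library, and 3 counts, the limit that a count of 0 allows, corresponded to 0.143 to 0.17 CPM. There is 1 library per group, so the difference within WT has no replicate and no p-value, and the bracketed intervals cover counting error only. Ripk1 was at 83.6, 77.5, 84.7 and 80.8 CPM, so the counts over the whole gene do not set the genotypes apart, and the labels are kept as names. Xist, the RNA that coats the inactive X chromosome, had 6271 and 6955 counts in the WT libraries and 5 and 4 in the KO-labelled libraries. The genotypes thus also differ in this X-linked RNA. The sex of the mice is not given and was not tested. Where the pairs are compared, anything that differs along with genotype, sex included, cannot be told apart from it. Transcripts made by hepatocytes stood out in WT aTreg. The 40 hepatocyte genes, listed after their values were seen, summed to 5.81 CPM for WT rTreg and 45.9 for WT aTreg, against 1.93 and 2.19 in the KO-labelled pair. Alb, which encodes serum albumin, had 12, 224, 0 and 0 counts. None of the 40 genes reached the level minimum, so leaving them out could not change the counts of genes given below. Whether their source also added to kept genes was not tested.

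Markers of other cell types were mostly low. Of 18 B cell markers, 5 reached the level minimum, and the list's summed level was 384 CPM in WT rTreg and 648 in WT aTreg. This difference came mainly from Ighm, with 7206 and 11924 counts, and Cd74, with 426 and 751. Ms4a1, a defining B cell gene that encodes CD20, was near 0, with 2 and 4 counts. Cd79b, of the same list, averaged 11.8 CPM over the 4 libraries, with a log2 ratio of 0.68 in WT. Cd22, a B cell receptor gene outside the list, had 24 and 137 counts in WT rTreg and WT aTreg. The part of such cells in the values below was not tested. The macrophage and monocyte list summed to 114 and 141 CPM, the dendritic cell list to 114 and 129, and the stroma and endothelium list to 231 and 157, of which Pecam1 made up most. CD8 T cell markers summed to 14 and 9.71 CPM, and neutrophil markers to 0.286 and 1.12. In bulk RNA, fewer cells of a kind and less RNA per cell cannot be told apart.

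Most genes differed little between WT aTreg and WT rTreg. The central 90% of log2 ratios lay between -0.45 and 0.55, with an SD of 0.35 over the 9680 genes. At least 2-fold apart were 251 genes (2.59% of those kept), with 181 (1.87%) higher and 70 (0.723%) lower in WT aTreg. At the lower threshold of 1.5-fold they were 724 (7.48%), with 434 (4.48%) higher and 290 (3%) lower. The larger ratios sat on the higher side. The whole counting interval lay beyond 2-fold for 97 of the 181 higher genes and for 16 of the 70 lower genes. The lowest of 5 equal bins of genes by level (5.01 to 15.3 CPM) held 90 of the 181 and 39 of the 70. The highest bin held 13 and 1. The counting interval excluded equality for all 181 and all 70, as it did for 50.6% of all kept genes. The reason for the uneven shares over the bins was not tested. Gene length moved little with the ratio, with medians over 5 equal bins of exonic length between -0.02 and 0.01. The genes nearest the 2-fold threshold were Atp9a at 1.0 and Tmem198 at 0.99 on the higher side, and Cdca3 at -1.0 and Tpx2 at -0.99 on the lower side. At the level minimum, Kif24 lay just inside at 5.01 CPM.

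**Figure D1:**
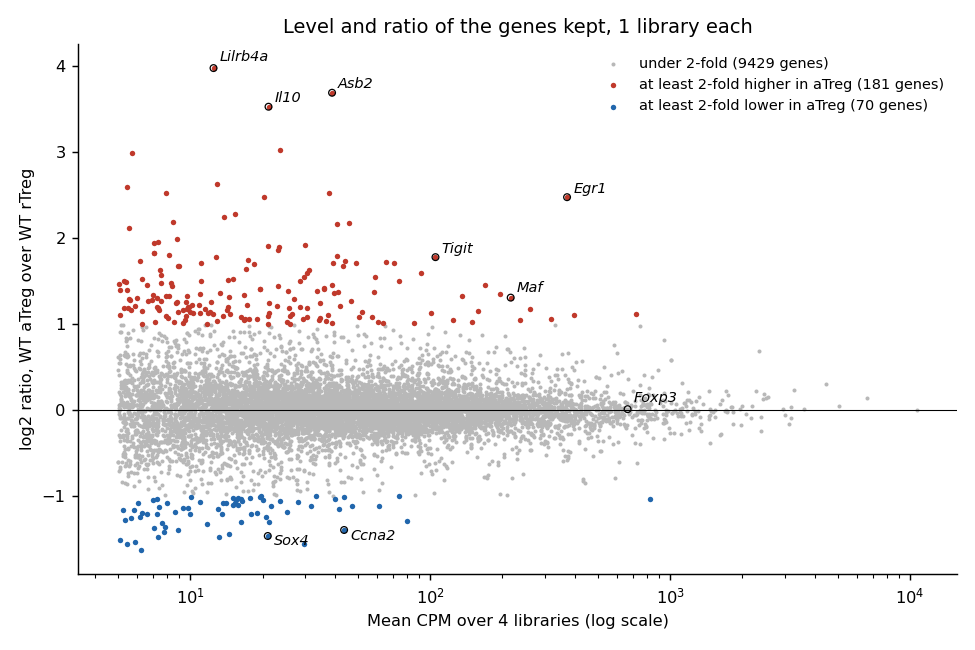
Each point is 1 of 9680 genes, with its mean CPM over 4 libraries on a log scale (x axis) and its log2 ratio of WT aTreg over WT rTreg (y axis), 1 library each. Genes at least 2-fold higher are red (181), those at least 2-fold lower blue (70). Foxp3 lies on the line of equality, and Egr1 stands above all other genes of its level.

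The only repeat of the difference between states is the KO-labelled pair, which shares no library with the WT pair but differs from it in genotype label and in Xist. There, 92 genes (0.95%) were at least 2-fold higher and 13 (0.134%) lower in aTreg, and at 1.5-fold 295 (3.05%) were higher and 143 (1.48%) lower. Of the 181 genes at least 2-fold higher in WT, 175 also had a ratio above equality in the KO-labelled pair, where 50.6% of all genes had one, and 65 were 2-fold higher there too. Their median log2 ratio was 1.299 in WT against 0.81 in the KO-labelled pair. Of the 70 genes at least 2-fold lower in WT, 62 were below equality in the KO-labelled pair, as were 49.4% of all genes, and 7 were 2-fold lower. Their median was -1.15 in WT against -0.37 in the KO-labelled pair. Both sets were picked by their WT ratio, which by itself favours more extreme medians in WT, so these medians do not compare the pairs. Within the KO-labelled pair, the genes higher in WT aTreg had a median farther from equality than the genes that were lower. An edgeR quasi-likelihood test of state over all 4 libraries, with genotype as a second term and Benjamini-Hochberg adjustment over all 9680 genes at 0.05, called 766 genes (7.91%) higher and 527 (5.44%) lower in aTreg. It includes the WT libraries and has 1 residual degree of freedom, which is the disagreement of the state ratios between the 2 pairs. This disagreement was moderated by that of all genes (prior degrees of freedom 11.8). No group has a replicate, so its p-values rest on this disagreement and need not hold the spread between mice. With state as the only term, so that differences between genotypes enter the error, edgeR called none (328 at an unadjusted p under 0.05) and DESeq2 32. The words rose and fell are kept for genes called by the test with both terms. Counts of genes that rose or fell in the lists below stand against 7.91% and 5.44% of all genes.

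The gene with the highest rank in WT aTreg, ordered by the interval bound nearer to equality, was Asb2 (chromosome 12, 103321142 to 103356001, minus strand, GRCm38), which encodes the substrate-binding subunit of a ubiquitin ligase. It had 91 counts in WT rTreg and 1180 in WT aTreg, or 4.34 and 57.3 CPM, and 10.2 and 84.6 CPM in the KO-labelled pair. Both aTreg libraries were far above both rTreg libraries, and the log2 ratio was 3.69 (3.42 to 4.05) in WT against 3.04 (2.83 to 3.29) in the KO-labelled pair (edgeR adjusted p = 5.92e-08). Lilrb4a (chromosome 10, 51490956 to 51496611, plus strand), an inhibitory receptor of the immunoglobulin family, was at 0.667, 12, 4.71 and 32.7 CPM, a log2 ratio of 3.98 (3.40 to 5.07) in WT. Its neighbour and close copy Lilrb4b was at 1.95, 16.6, 12.4 and 63.6 CPM, and reads shared between the pair could have been split by the counting. In this pair of genes the KO-labelled libraries were above the WT library of the same state, while the aTreg library was the higher of each genotype.

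Il10 (chromosome 1, 131019845 to 131024974, plus strand), the gene of an anti-inflammatory cytokine through which Treg cells act at mucosal surfaces, was at 4.05, 47.9, 7.44 and 25.5 CPM. It rose in aTreg, with a log2 ratio of 3.53 (3.24 to 3.90) in WT against 1.76 (1.497 to 2.07) in the KO-labelled pair (edgeR adjusted p = 6.15e-05). Penk, which encodes the precursor of the enkephalin opioid peptides, was at 6.34, 35.9, 10.8 and 28.2 CPM. Ccl5, a chemokine gene, was at 4.43, 26, 23.5 and 97.3 CPM, so the KO-labelled rTreg library was close to the WT aTreg library. Mmp9, a secreted matrix protease, was at 1.48, 8.98, 2.44 and 18.8 CPM. All 3 rose, with log2 ratios in WT of 2.48 for Penk, 2.52 for Ccl5 and 2.52 for Mmp9.

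These genes belong to a list of 37 suppressive and effector molecules, of which 26 reached the level minimum. Of the 26, 19 rose, and none fell by edgeR, by DESeq2 or at an unadjusted p under 0.05. The median log2 ratio was 1.09 in WT against 0.74 in the KO-labelled pair, against 0.00 over all genes. In WT 17 members were at least 1.5-fold higher and 1 lower, against 4.48% and 3% of all genes. Cytokine genes among them were Ebi3, a subunit of interleukin 35 and interleukin 27 (6.53 and 21.5 CPM in WT rTreg and aTreg), and Csf1, a growth factor of macrophages (13.7 and 45.7 CPM). Fgl2, a secreted suppressive protein of Treg cells, was at 18 and 62.6 CPM, and Il1r2, the decoy receptor for interleukin 1, at 3.29 and 16.4. Gzmb, the cytotoxic protease granzyme B, was at 11.5 and 29.6 CPM in the WT pair and at 215.3 and 528.3 in the KO-labelled pair, with nearly equal log2 ratios of 1.35 (1.14 to 1.58) and 1.29 (1.24 to 1.35). The constitutive molecules of the list moved less. Tgfb1, which encodes a suppressive cytokine held in latent form, rose with a ratio of 0.26, and Lrrc32, the docking receptor for that latent form, had 0.12 and did not pass the test. Prf1, the pore-forming protein that acts with granzymes, was the 1 member at least 1.5-fold lower in WT, at 3.10 and 1.99 CPM, a log2 ratio of -0.61 (-1.24 to -0.05), and did not pass the test.

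**Figure D2:**
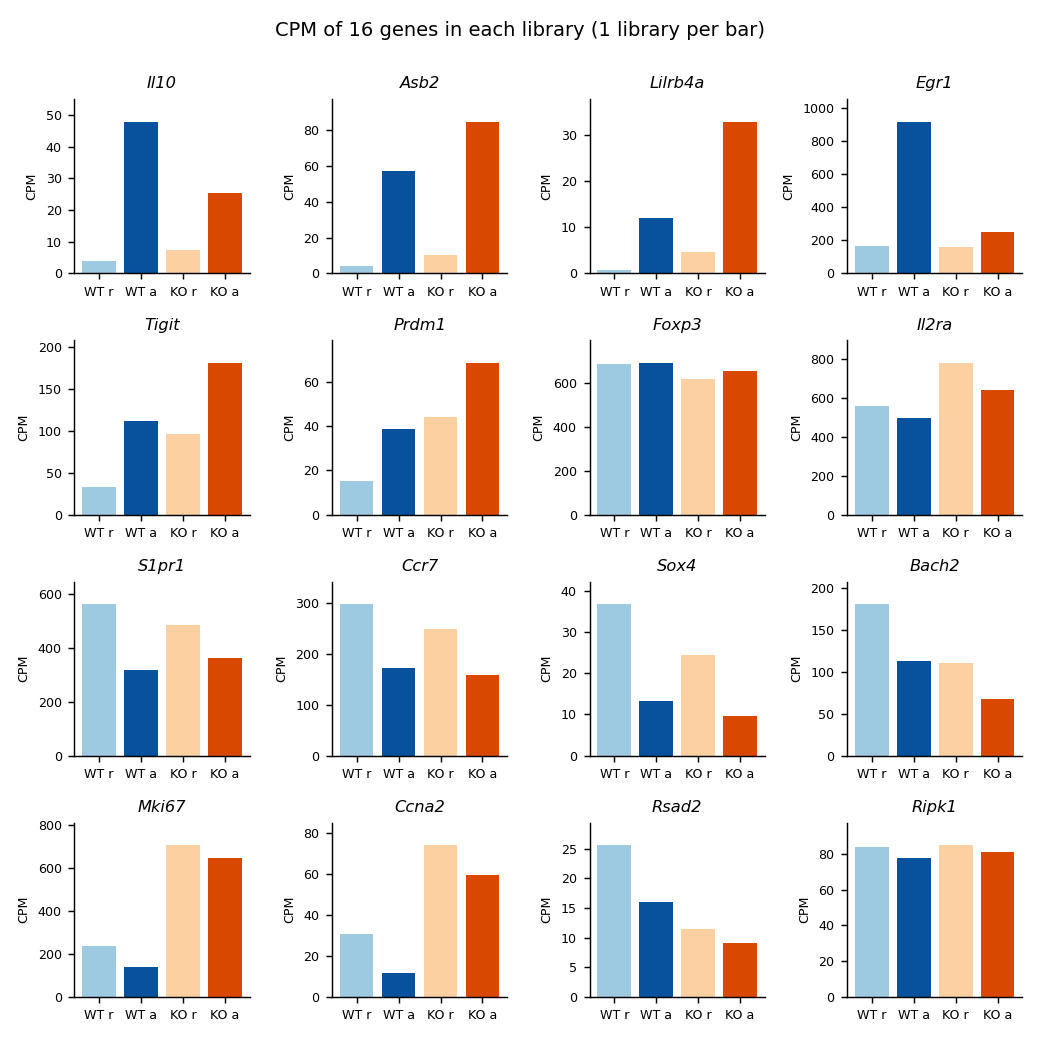
Bars give the CPM (y axes from 0) of 16 genes in each of the 4 libraries, rTreg and aTreg of the WT and then of the KO-labelled genotype, with 1 library per bar. Both aTreg bars exceed both rTreg bars for Il10 and Asb2 and lie below them for S1pr1 and Sox4, while Mki67 and Ccna2 are higher in both KO-labelled libraries than in either WT library.

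Inhibitory and costimulatory receptors were mostly higher in WT aTreg. Of 34 listed genes 32 reached the level minimum, 19 rose and 1, Btla, an inhibitory receptor for a member of the tumour necrosis factor receptor family, fell, with a log2 ratio of -0.32 in WT. The median log2 ratio was 0.50 in WT against 0.34 in the KO-labelled pair. Tigit, an inhibitory receptor that competes for ligands of CD226, was at 32.4, 111, 96.5 and 181 CPM, so the KO-labelled rTreg library lay near the WT aTreg library. Lag3, an inhibitory receptor for class II MHC, was at 19.3, 61.9, 23.2 and 68.6 CPM, with almost the same values in the 2 genotypes. Pdcd1, which encodes PD-1, was at 30.5, 73.9, 26.2 and 56.5 CPM. Pvrig, an inhibitory receptor related to TIGIT, and Tnfrsf8, which encodes CD30, rose with log2 ratios in WT of 2.12 (1.62 to 2.82) and 1.99 (1.67 to 2.39). Icos, a costimulator, rose with 0.73 (0.62 to 0.83) in WT against 0.18 in the KO-labelled pair. Ctla4, the receptor that strips costimulatory ligands from antigen-presenting cells, was at 288 and 352 CPM in the WT pair, a ratio of 0.29, and did not pass the test.

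Transcription factors of effector Treg cells had a median log2 ratio of 0.49 in WT against 0.32 in the KO-labelled pair. Of 32 listed, 29 reached the level minimum, of which 20 rose and 1 fell, the factor Ets2. Hic1, a repressor active in intestinal T cells, was at 4.29, 27.1, 5.17 and 15.3 CPM. Prdm1, the gene of BLIMP1, which acts in effector Treg cells, was at 14.9, 38.7, 44 and 68.4 CPM. The lowest value of Prdm1 was in WT rTreg, and the KO-labelled rTreg library was above WT aTreg. Maf was at 113, 281, 166 and 307 CPM, a log2 ratio of 1.31 (1.24 to 1.38) in WT. Tox2 rose with 1.86 in WT, Tbx21, which encodes T-bet, with 1.92, and Epas1, a hypoxia-inducible factor, with 1.65. Tbx21 was at 2.76 and 10.8 CPM in WT and 36.5 and 70.8 CPM in the KO-labelled pair. Irf4 and Batf, partners in T cell receptor responses, differed less: Batf rose with a ratio of 0.43 and Irf4 had 0.39, which did not pass the test.

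Lower in WT aTreg were naive-state factors and homing genes. Of 21 genes listed as quiescence and naive-state transcription factors, all at the level minimum, 14 fell and 1, Btg2, rose, and the median log2 ratio was -0.36 in WT against -0.28 in the KO-labelled pair. Sox4 was at 36.7, 13.2, 24.4 and 9.54 CPM and had the second lowest rank of the genes ranked, with a log2 ratio of -1.46 (-1.68 to -1.27). Bach2, a repressor that holds back effector differentiation, was at 180.2, 113, 110.5 and 67.6 CPM. Lef1 and Tcf7, partner factors of naive T cells, fell with ratios of -0.79 and -0.37. Satb1, a chromatin organiser of the thymic Treg lineage, fell with -0.84, and Klf2, which sustains transcription of homing receptors, with -0.53. Btg2, an antiproliferative gene, was at 241 and 385 CPM in the WT pair, a ratio of 0.68, and 0.13 in the KO-labelled pair.

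Of 22 lymphoid homing and resting surface genes, 21 reached the level minimum, 17 fell and 1, Ccr9, rose. The median was -0.59 in WT against -0.52 in the KO-labelled pair. Ccr7 was at 298.5, 173, 249 and 159 CPM, and S1pr1, the receptor for egress from lymphoid organs, at 564, 319, 487 and 363. Atp1b1, a subunit of the sodium pump, fell with -1.04, Dapl1 with -1.19, and Gpr83, an orphan receptor of Treg cells, with -0.55. Ccr9, the receptor that guides T cells to the small intestine, went the other way in the same list, at 22.3, 47.4, 13.4 and 39.4 CPM. It overlaps Slc6a20a on the other strand, and whether the counting used strand is not given in the sources used here.

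Receptors for tissues were mostly higher in WT aTreg. Of 16 chemokine and trafficking receptors at the level minimum, of 22 listed, 10 rose and 3 fell, and the 3 were Ccr7, S1pr1 and Ccr10. Ccr8, a receptor of tissue Treg cells, was at 19.8, 52.6, 29.2 and 43.0 CPM, and Cxcr6 at 7.10, 18.2, 8.29 and 33.4. Cxcr3, the receptor for interferon-induced chemokines, was at 25.7, 64.8, 197 and 258 CPM, so both KO-labelled libraries were above WT aTreg. Its log2 ratio was 1.33 (1.19 to 1.48) in WT against 0.39 (0.32 to 0.45) in the KO-labelled pair. Ccr6, a receptor of mucosal lymphoid tissue, rose with 0.85 in WT. Of the wider list of 37 tissue Treg genes, which shares 7 genes with the receptor list, 34 reached the level minimum, 22 rose and 1 fell, with medians of 0.43 in WT against 0.46 in the KO-labelled pair. Itgae, the alpha chain of the integrin that binds epithelial cadherin, was at 78.1, 214, 145 and 241 CPM, and Areg, a growth factor for tissue repair, rose with 1.14 (0.87 to 1.45). Anxa2, a membrane-binding annexin, was the lowest of that list and did not pass the test. It was at 93.9 and 47.6 CPM in WT and at 321 and 321 in the KO-labelled pair, a log2 ratio of -0.98 (-1.09 to -0.87) in WT against -0.00 (-0.05 to 0.05).

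**Figure D3:**
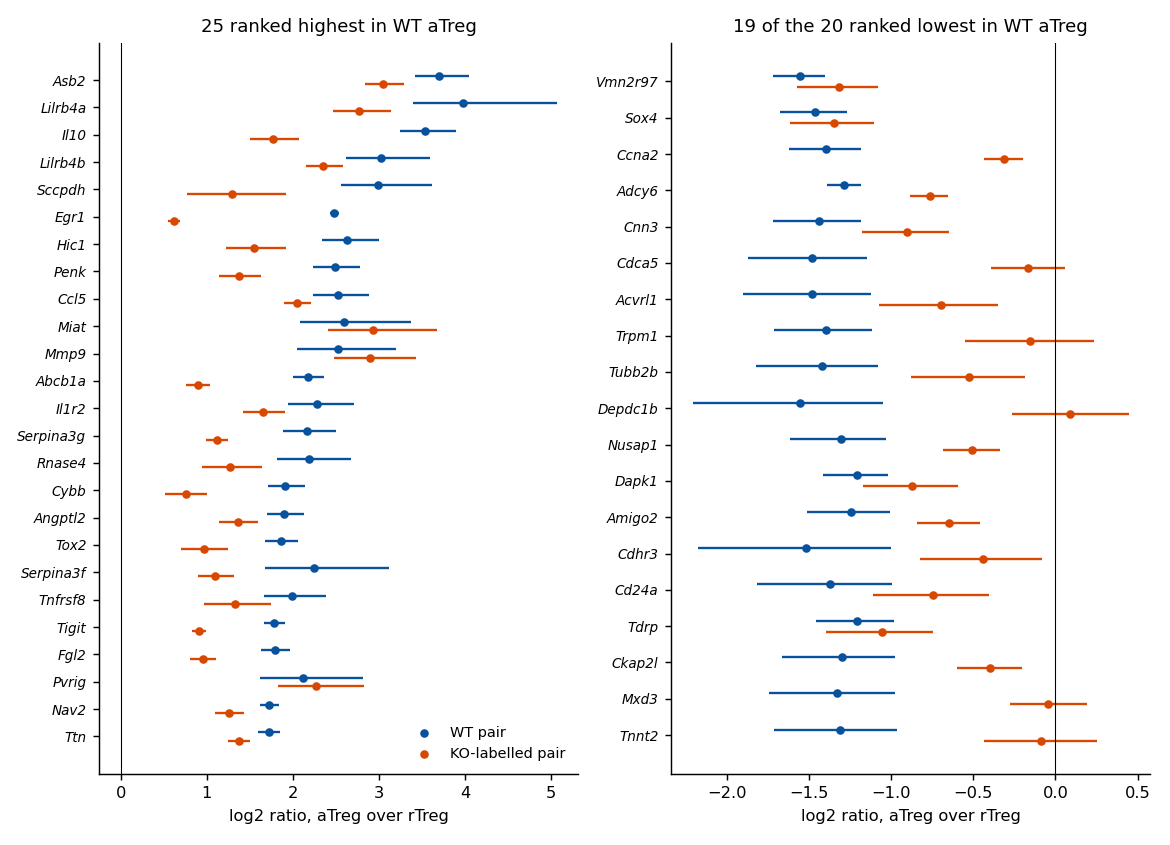
Points are log2 ratios of aTreg over rTreg (x axes) and lines their 95% counting intervals for the 25 genes ranked highest (left) and 19 of the 20 ranked lowest (right) in WT, with the WT pair in blue and the KO-labelled pair in orange, 1 library per state each. In the left panel both pairs lie above equality for all 25 genes, and in the right panel the KO-labelled intervals of Cdca5, Trpm1, Depdc1b, Mxd3 and Tnnt2 include equality.

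Core identity genes of Treg cells and genes of the T cell receptor pathway had small median ratios, though more of them rose than the 7.91% of all genes. Of 30 Treg identity genes 10 rose and 3 fell, with medians of 0.16 in WT against 0.08 in the KO-labelled pair. The members with the largest ratios in WT were Penk, Cd83 (1.71, 1.57 to 1.85), Itgae (1.46) and Nt5e (0.72), the last of which encodes the ectoenzyme CD73 that makes adenosine. Il2ra, the alpha chain of the interleukin 2 receptor, was at 557 and 499 CPM, a ratio of -0.16, and did not pass the test. Of 34 T cell receptor signalling genes 8 rose and 1, Prkcq, fell, with a median of 0.06. Nfatc1, a factor that is itself induced by calcineurin signalling, had the highest ratio, 0.64 (0.59 to 0.69), and Zap70, the kinase recruited to the receptor, rose with 0.51.

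Early-response transcription factors, which are induced within minutes of receptor signals, were higher in WT aTreg. Of 31 listed genes 27 reached the level minimum, and 18 rose. None fell by edgeR or by DESeq2, and 1 was lower at an unadjusted p under 0.05. The median log2 ratio was 0.64 in WT against 0.25 in the KO-labelled pair. At least 1.5-fold higher were 15 of the 27 in WT, against 4.48% of all genes. In the KO-labelled pair they were 3 of the 27, against 3.05% of all genes. Egr1 stood apart, with 3449 counts in WT rTreg and 18866 in WT aTreg, or 164 and 916 CPM, and 161 and 248 CPM in the KO-labelled pair. The 2 rTreg libraries were nearly equal, and WT aTreg was above all others, with a log2 ratio of 2.48 (2.43 to 2.53) in WT against 0.62 (0.55 to 0.69). Among kept genes whose WT ratio was the higher, leaving out predicted genes, pseudogenes and receptor segment genes, the gap of 1.74 between these intervals was the largest. Fos was at 335 and 719 CPM in WT and 234 and 310 in the KO-labelled pair. Nr4a1, the orphan nuclear receptor used as a reporter of T cell receptor signals, was at 754 and 1323 CPM in WT and 787.5 and 920.3 in the KO-labelled pair. The difference between the pairs was not tested, because a model with that term has no residual degrees of freedom.

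The promoter of Nr4a1 is shown because it holds the motif GCGNGGGCG of the EGR factors. The stretch (RefSeq, GRCm38.p6, chr15:101266696-101266865, plus strand) runs from 150 bases before to 20 bases after the annotated start, 5′ to 3′, with the motif in capitals as it reads on this strand.
Nr4a1: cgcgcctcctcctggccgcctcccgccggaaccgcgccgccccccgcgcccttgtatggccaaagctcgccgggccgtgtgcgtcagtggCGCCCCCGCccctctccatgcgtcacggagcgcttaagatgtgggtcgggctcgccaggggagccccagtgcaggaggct
In windows from 250 bases before to 50 after the start, searched on either strand, 8 of the 19 early-response genes with an entry (42.1%) held this motif, against 12.7% of the 7733 kept genes with an entry. A match of letters is a description and shows no binding.

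Feedback and NF-kappaB genes, downstream of the same receptors, rose in smaller number than the early-response genes. Of 22 MAP kinase and G-protein feedback genes at the level minimum 8 rose and 2 fell. Of 31 NF-kappaB genes 11 rose and 1, Irf1, fell. Over all genes 7.91% rose and 5.44% fell. The WT medians of the 2 lists were 0.17 and 0.20. Gadd45b, a stress-response gene induced by NF-kappaB, was at 154 and 348 CPM in WT, and Rgs16, a brake on G-protein signals, at 75.6 and 137. Tnf, the gene of an inflammatory cytokine, was at 14.8, 43.5, 22.4 and 38.3 CPM, with both aTreg libraries above both rTreg libraries. Nfkbid, an atypical nuclear regulator of NF-kappaB that takes part in Treg development, rose with 0.86 (0.80 to 0.92) in WT against 0.32 in the KO-labelled pair.

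Genes of mitosis were lower in WT aTreg as a block, and this was the largest downward shift among the 29 gene lists. Of 71 listed genes 69 reached the level minimum, and 68 of these were lower in WT aTreg, with a median log2 ratio of -0.80. At least 1.5-fold lower were 47 and at least 2-fold lower 21, against 3% and 0.723% of all genes. These 21 are among the 70 genes at least 2-fold lower. In the KO-labelled pair the median was -0.11 and 1 member was at least 1.5-fold lower, against 1.48% of all genes there. The edgeR test called 18 of the 69 lower, against 5.44% of all genes, and DESeq2 called 4, against 134 of all 9680. None was called higher by either tool or at an unadjusted p under 0.05. In summed level the list went from 2744 to 1869 CPM in WT and from 4757 to 4169 CPM in the KO-labelled pair, so that both KO-labelled libraries were above both WT libraries. The WT ratio was below the KO-labelled ratio for 65 of the 69 members, against 50.1% of all 9680 genes. For 51 members the WT counting interval lay wholly below the KO-labelled one, against 9.67% of all genes, but the difference between the pairs was not tested against any spread between replicates.

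Ccna2 (chromosome 3, 36564865 to 36572150, minus strand), the gene of cyclin A2, fell from 30.4 to 11.5 CPM in WT and from 73.8 to 59.3 CPM in the KO-labelled pair, with log2 ratios of -1.39 (-1.62 to -1.18) and -0.32 (-0.43 to -0.20). It overlaps Exosc9 on the other strand. Mki67, which encodes the proliferation antigen Ki-67, was at 238, 137, 706 and 647.5 CPM, and Top2a, the topoisomerase that untangles sister chromatids, at 144, 72.7, 343 and 272. Both fell. Birc5, which encodes survivin of the chromosomal passenger complex, fell with -1.15 (-1.40 to -0.91) in WT. Several members with the lowest WT ratios were nearly level in the KO-labelled pair and were not called. Cdca5, which encodes sororin, a protector of sister chromatid cohesion, was at 12.1 and 4.27 CPM in WT and at 19.1 and 17.0 in the KO-labelled pair. Espl1, the separase that cuts cohesin, was at 24 and 11 CPM in WT and at 45.9 and 47.0 in the KO-labelled pair. Aspm, a spindle pole protein, was at 23.6 and 10.3 CPM in WT and at 34.2 and 33.5 in the KO-labelled pair, and Kif18b, a kinesin of spindle microtubule ends, at 12 and 5.15 against 31.1 and 27.7. Depdc1b was at 5.19 and 1.70 CPM in WT and at 7.21 and 7.67 in the KO-labelled pair. Cks2, an adaptor of cyclin-dependent kinases, was the member with a WT ratio above equality, at 0.23 (0.04 to 0.42).

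Promoters of late cell-cycle genes commonly carry the cell cycle genes homology region (CHR, TTTGAA), which is bound by MuvB complexes, and CCAAT boxes, which are bound by NF-Y. Promoters of 3 mitosis genes with low WT ratios are shown because they hold the CHR, and the motifs are in capitals, CCAAT as ATTGG where it lies on the other strand. Each runs 5′ to 3′ from 150 bases before to 20 after the RefSeq start (GRCm38.p6), for Cdca5 on the plus strand at chr19:6084947-6085116 with the CHR alone in capitals, for Kif18b on the minus strand at chr11:102925105-102925274, and for Aspm on the plus strand at chr1:139454623-139454792.
Cdca5: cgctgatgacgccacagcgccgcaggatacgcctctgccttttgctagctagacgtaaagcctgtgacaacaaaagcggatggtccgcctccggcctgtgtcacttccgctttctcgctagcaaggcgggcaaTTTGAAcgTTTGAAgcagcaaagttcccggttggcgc
Kif18b: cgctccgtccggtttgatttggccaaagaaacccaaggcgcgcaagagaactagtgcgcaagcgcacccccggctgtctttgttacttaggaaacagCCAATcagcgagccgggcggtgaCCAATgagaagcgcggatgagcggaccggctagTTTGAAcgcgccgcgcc
Aspm: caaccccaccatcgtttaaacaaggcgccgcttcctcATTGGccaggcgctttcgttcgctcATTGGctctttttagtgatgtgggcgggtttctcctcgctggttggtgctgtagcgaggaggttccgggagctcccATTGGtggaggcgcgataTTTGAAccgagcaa
The CHR letters were found in 39 of the 58 mitosis genes with an entry (67.2%), against 14.1% of the 7733 kept genes, and the CCAAT letters in 39 of 58 against 43.1%. Among genes at least 2-fold lower in WT aTreg that are not in the mitosis list, 10 of 36 (27.8%) held the CHR letters. Among genes at least 2-fold higher, 18 of 136 (13.2%) did. The 2-fold lower genes outside the mitosis list still included cell-cycle genes, such as Clspn of the S phase list (-1.01) and Cenpi (-1.20).

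Genes of DNA replication and S phase were lower to a smaller degree. Of 50 listed 49 reached the level minimum, and 46 of these were below equality in WT. At least 1.5-fold lower in WT were 14, against 3% of all genes. The median was -0.35 in WT against -0.05 in the KO-labelled pair. The edgeR test called 4 of the 49 lower, near the 5.44% of all genes, and none higher, with 14 lower and none higher at an unadjusted p under 0.05, and DESeq2 called none. Among the 4 were Rrm2, Cdc45 and Pole2, and Rrm2, the regulated subunit of ribonucleotide reductase, was at 55.6 and 33.3 CPM in WT and at 169 and 150.5 in the KO-labelled pair. The replicative helicase moved less, with log2 ratios between -0.35 for Mcm5 and 0.16 for Mcm6. The letters TTTNNCGC of the E2F factors were found in 19 of 38 S phase promoters (50%), against 10.6% of kept genes.

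**Figure D4:**
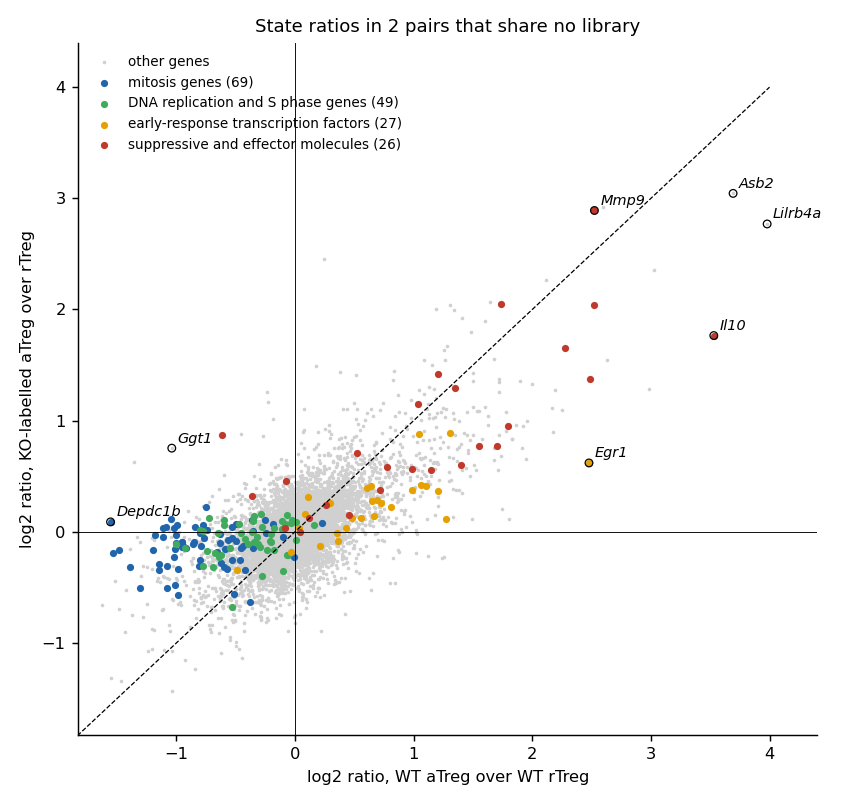
Each point is 1 of 9680 genes, with its log2 ratio of aTreg over rTreg in the WT pair (x axis) and in the KO-labelled pair (y axis), which share no library. The dashed line marks equal ratios. Suppressive and effector molecules lie high in both pairs, mitosis and S phase genes spread leftward along the horizontal axis, and Egr1 lies far to the right of the dashed line.

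Interferon-stimulated genes were lower by small amounts. Of 60 type I interferon-stimulated genes 54 reached the level minimum, of which 26 fell and 1, Ly6a, rose. The median was -0.18 in WT against -0.28 in the KO-labelled pair. In WT 3 members were at least 1.5-fold lower, against 3% of all genes. Oas2, a sensor of double-stranded RNA, was at 83.9, 48.3, 44.2 and 29.4 CPM, and WT aTreg lay near the KO-labelled rTreg library. Rsad2, which encodes the antiviral protein viperin, was at 25.6, 16.1, 11.4 and 9.17 CPM, a log2 ratio of -0.67 (-0.87 to -0.47) in WT. Ifit1, which binds viral RNA ends, had the same ratio of -0.46 in both pairs. The promoter of Rsad2 (RefSeq, GRCm38.p6, chr12:26456433-26456602, minus strand) is shown with the interferon-stimulated response element, searched as GAAA, any 2 bases and GAAA, in capitals, which lie on the other strand in this 5′ to 3′ stretch.
Rsad2: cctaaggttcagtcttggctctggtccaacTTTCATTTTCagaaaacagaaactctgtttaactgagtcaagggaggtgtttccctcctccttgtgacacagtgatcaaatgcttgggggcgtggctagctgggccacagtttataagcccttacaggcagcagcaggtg
These letters were found in 21 of 40 type I interferon-stimulated genes with an entry (52.5%) and in 4.03% of kept genes.

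Genes of the interferon-gamma response did not share this direction in WT. The 28 members at the level minimum had a median of 0.14 in WT against -0.24 in the KO-labelled pair. Of the 28, 4 rose and 5 fell, against 7.91% and 5.44% of all genes. Cxcl10, a chemokine that binds CXCR3, was at 7.15, 24.2, 17.8 and 20.6 CPM, so WT rTreg was the low library. Gbp3, a guanylate-binding protein, was at 70.3 and 103 CPM in WT and 274 and 245 in the KO-labelled pair, and Cd274, which encodes PD-L1, at 57.4 and 77.3 against 138 and 117. Neither Gbp3 nor Cd274 passed the edgeR test, and each had opposite directions in the 2 pairs. Class I MHC genes had a median of 0.15 in WT, with H2-Q6 at 478 and 1041 CPM as the highest, and its reads may be shared with H2-Q7.

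**Figure D5:**
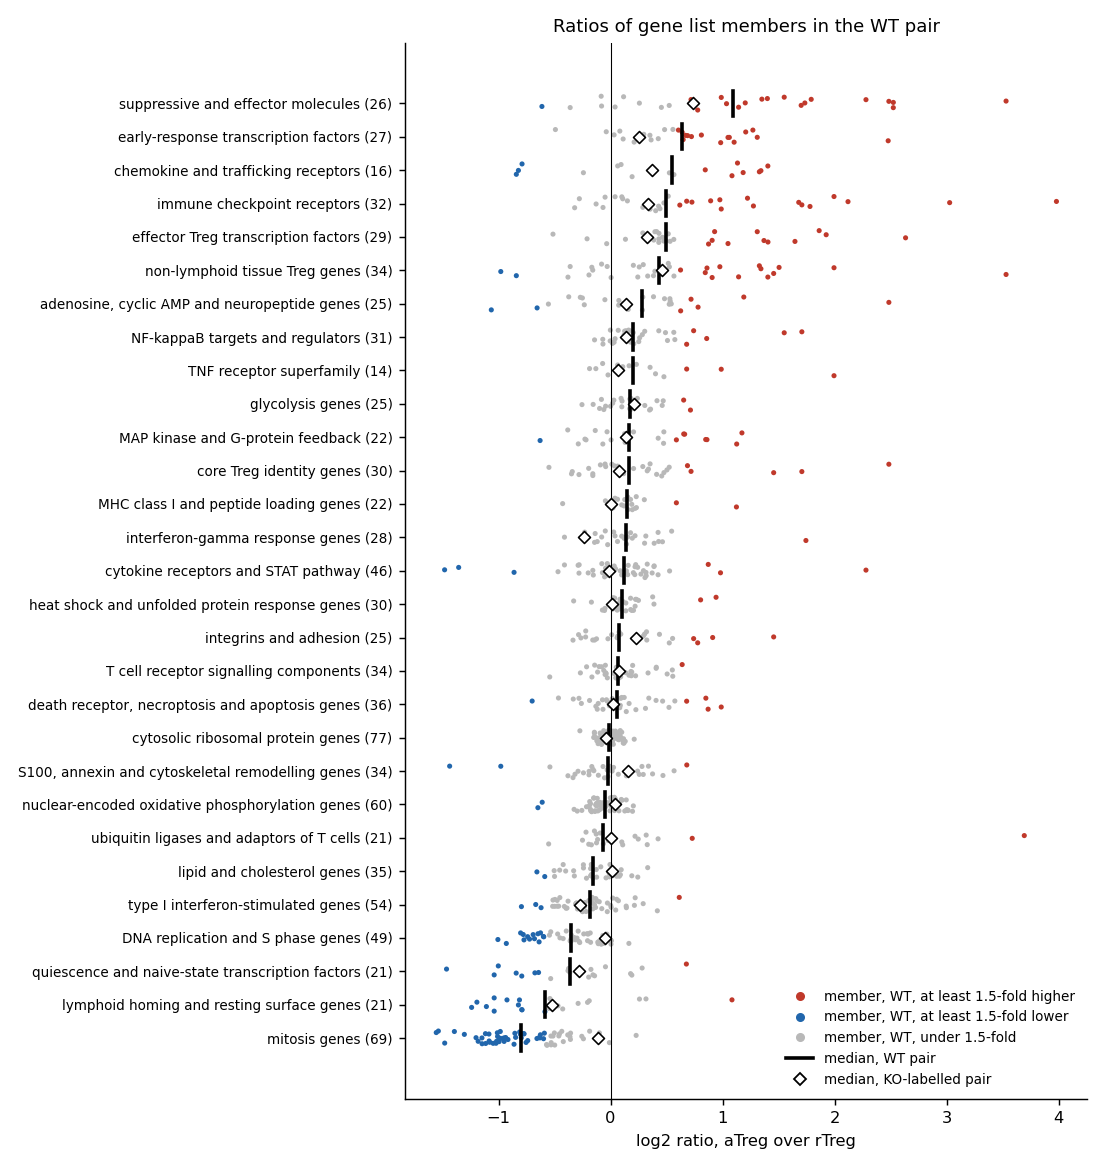
Each point is the log2 ratio of WT aTreg over WT rTreg (x axis) of 1 member of a gene list (y axis, number of members at the level minimum in brackets, vertical position within a row random). Bars are medians in the WT pair and diamonds medians in the KO-labelled pair. Suppressive and effector molecules have the highest median, 1.09, and mitosis genes the lowest, -0.80, where bar and diamond are also farthest apart.

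Genes of death receptor signalling, necroptosis and apoptosis, that is, of the cell death named in the study's title, had a small median ratio, with members on both sides. The 36 members at the level minimum had a median log2 ratio of 0.06 in WT, with 6 that rose and 4 that fell, against 7.91% and 5.44% of all genes. Ripk1 had a log2 ratio of -0.11 (-0.21 to -0.01) and Ripk3, the kinase that drives necroptosis, -0.00 (-0.11 to 0.11) in WT. Fadd, the adaptor of death receptors, was at 8.58 and 10.1 CPM, and Mlkl, the pore-forming effector of necroptosis, had 35 and 38 counts and was below the level minimum. Casp8, the protease that restrains necroptosis, fell, at 239, 199, 253 and 194 CPM. Bcl2l11, which encodes the death-promoting protein BIM, fell with -0.70 (-0.78 to -0.62), and Bcl2, its survival-promoting relative, fell too, with -0.47 (-0.52 to -0.41). Tnfrsf1b, the tumour necrosis factor receptor carried by activated Treg cells, rose from 208 to 413 CPM in WT and from 286 to 425 in the KO-labelled pair.

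Cytokine receptors went in both directions, with a median of 0.12 in WT. Of 46 members 12 rose and 6 fell, against 7.91% and 5.44% of all genes. Il10ra, a receptor chain for the cytokine that itself rose, was at 80.6, 148, 120.2 and 187 CPM, and Il18rap, a chain of the interleukin 18 receptor, at 15.4, 30.5, 50.2 and 102. Acvrl1, a receptor of the transforming growth factor family, fell with -1.48 (-1.90 to -1.12), as did Tgfbr3, a co-receptor for that family, with -0.86. Il12rb2, a chain of the interleukin 12 receptor, had 19 and 6 counts in WT and 210 and 346 in the KO-labelled pair. Among adenosine, cyclic AMP and neuropeptide genes 10 of 25 rose and 1, Vipr1, the receptor for vasoactive intestinal peptide, fell, with -1.06 (-1.23 to -0.91). Adora2a, the adenosine receptor of T cells, was at 53.6, 92.2, 64.3 and 91.6 CPM. Adcy6, an adenylyl cyclase outside the lists, fell from 125 to 51.3 CPM in WT and from 90.2 to 53.0 in the KO-labelled pair.

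Ribosomal protein and oxidative phosphorylation genes had medians near equality, while glycolysis and lipid genes moved by small amounts. The 77 cytosolic ribosomal protein genes had a median of -0.01 in WT, with none past 1.5-fold, and none passed the edgeR test or DESeq2 in either direction, with 3 lower at an unadjusted p under 0.05. The 60 genes of oxidative phosphorylation had a median of -0.05, with 1 that rose and 1 that fell. Glycolysis genes had a median of 0.17, and 7 of 25 rose and 1 fell, against 7.91% and 5.44% of all genes. Among the 7 were Hk2, a hexokinase, at 5.53, 9.13, 9.20 and 19.8 CPM, and Aldoa, an aldolase, with 0.41. The lipid and cholesterol list had a median of -0.16 in WT against 0.02 in the KO-labelled pair.

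Other genes of high or low rank fell outside the lists. Sccpdh, a gene of a dehydrogenase-like protein, was at 1.67, 13.9, 2.10 and 5.28 CPM. Abcb1a, which encodes a drug efflux pump, was at 15.4, 70.0, 34.1 and 63.5 CPM, with a log2 ratio of 2.17 (2.005 to 2.36) in WT against 0.90 (0.75 to 1.04) in the KO-labelled pair. Miat, a long noncoding RNA, rose about as much in the 2 pairs, at 1.19, 7.72, 1.42 and 11.5 CPM. Cybb, the catalytic subunit of the phagocyte oxidase, was at 10.8, 41, 12.3 and 20.7 CPM. Serpina3f and Serpina3g, protease inhibitors that are close copies and may share reads, rose with 2.25 and 2.17 in WT, and Rnase4, at 2.19, overlaps Ang on the same strand. Vmn2r97, a vomeronasal receptor gene, had the lowest rank of the genes ranked, at 61.1, 20.7, 26.2 and 10.4 CPM. It fell by similar amounts in both pairs, with log2 ratios of -1.55 (-1.72 to -1.40) and -1.32 (-1.57 to -1.08). Cd24a, a surface glycoprotein of immature lymphocytes, and Dapk1, a calcium-regulated kinase, fell with -1.37 and -1.21.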

How the data were processed

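The submitters' processing notes name HISAT2 2.2.1, featureCounts 2.0.1 and GRCm38. Which annotation and strand setting served the counting is not given in the sources used here. The deposited table holds whole read counts, not normalized by the authors, per the labels and file headers. The authors also deposited variance-stabilised log2 values, used as an alternative.

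Library sizes were scaled by TMM in edgeR 4.0.16 (R 4.3.3), genes averaging 5 CPM or more over 4 libraries were kept, and log2 ratios used a prior count of 2. Intervals are exact binomial (Clopper-Pearson) at 95% on the 2 counts, without the prior count, and cover counting error only, since PCR copies are not independent molecules. edgeR's quasi-likelihood test used state and genotype as additive terms (biological coefficient of variation 6.66%, prior degrees of freedom 11.8), with DESeq2 1.42.0 as an alternative.

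Named are the 25 highest and 20 lowest genes by interval bound (predicted genes, pseudogenes and receptor segment genes left out), the 4 largest ratios per list with members needed for their role, the 5 per direction differing most between pairs, and single genes. Members and lists were chosen with earlier results of these data known. Gene positions come from GENCODE M21, in which 18443 of the 19044 symbols were found, and promoters from RefSeq. Some genes that the rule names are not reported here. Overlapping genes were not corrected for.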

Additional observations from a re-analysis of the deposited data

Results flagged for a closer look

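Several named genes had counting intervals on opposite sides of equality in the WT and the KO-labelled pair, and the difference between the pairs was not tested. Such opposite intervals were found for 318 of the 9680 kept genes (3.29%), 14 of them at least 1.5-fold apart in WT. Higher in WT aTreg but lower in KO-labelled aTreg were Gbp2b, a guanylate-binding protein gene similar to Gbp2, with a log2 ratio of 1.02 in WT against -0.19 in the KO-labelled pair, Gbp3 (0.55 and -0.16), Cd274 (0.43 and -0.24) and Pfkfb4, a regulator of glycolysis (0.46 and -0.53). Lower in WT aTreg but higher in KO-labelled aTreg were Ggt1, a gamma-glutamyltransferase (-1.04 and 0.75), Themis, a T cell receptor signalling protein (-0.54 and 0.21), Atp5k, a subunit of ATP synthase (-0.30 and 0.33), and Il12rb2 (-1.36 and 0.62), which had 19 and 6 counts in WT and overlaps Serbp1 on the other strand.

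The 40 hepatocyte genes were listed after their values were seen, and all were below the level minimum. They summed to 45.9 CPM in WT aTreg, above the other 3 libraries, and 39 of the 40 were higher there than in WT rTreg. As the list was made from these values, such counts are a description and no test. Serpina3k had 3 and 53 counts in WT rTreg and WT aTreg, Ttr 2 and 21, and Trf 13 and 79. Of the 134 genes below the level minimum whose whole interval lay beyond 2-fold on the higher side, 22 were among the 40. The source of these transcripts was not tested.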

How the results depend on the processing

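No paired analysis was possible because each group has 1 library and the labels give no replicate numbers, and for the same reason no library could be left out. The count of genes past 2-fold depended on the level minimum and the rule. It was 251 (181 higher, 70 lower), and became 1974 (1248 and 726) with no level minimum, 550 (379 and 171) at a mean of at least 1 CPM, 97 (78 and 19) at 20 CPM, 113 (97 and 16) where the whole interval had to lie beyond 2-fold, and 33 (30 and 3) with the deposited variance-stabilised values, where the cause was not tested. It was 239 to 253 with other scalings and prior counts. In an alternative chosen after seeing the data, it was 229 (181 and 48) without the mitosis and S phase lists. Leaving out the hepatocyte genes, also chosen after seeing the data, gave 251. That result was fixed in advance, since none of those genes reached the level minimum. State calls numbered 1293 (766 higher, 527 lower) by edgeR and 423 (289 and 134) by DESeq2, all 423 among edgeR's in the same direction; with no level minimum edgeR called 793 genes lower. With state alone, so that the difference between genotypes enters the error, edgeR called 0 (0 higher, 0 lower; 328 at an unadjusted p under 0.05) and DESeq2 32. No list median changed sign with scaling. List medians were compared with the medians of their members' counting bounds, which are not an interval of the list median. They moved beyond these bounds at 20 CPM for suppressive molecules (0.75), MAP kinase feedback (0.32) and adenosine genes (0.34). With no level minimum this held for chemokine receptors (0.70). Of 145 named genes, H2-K1 moved with upper-quartile scaling, from 0.30 to 0.28. At the level minimum a gene has few counts, so intervals there are wide.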

Other observations

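Below the level minimum, several genes of immune cells and of early responses had counting intervals beyond 2-fold on the higher side in WT. Xcr1, a chemokine receptor gene best known from cross-presenting dendritic cells, had 1 and 29 counts in WT rTreg and WT aTreg and 17 and 35 in the KO-labelled pair. Egr4, a relative of Egr1, had 16 and 96 counts in WT and 1 and 16 in the KO-labelled pair. Il4, the gene of a helper T cell cytokine, had 3 and 23 counts in WT, and 17 and 26 in the KO-labelled pair. Itga1, an integrin chain for collagen, had 6 and 45 counts in WT and 30 and 143 in the KO-labelled pair. Cd22, a B cell receptor gene, had 24 and 137 counts in WT and 36 and 56 in the KO-labelled pair. Dsp, which encodes a desmosome protein, had 26 and 186 counts in WT and 14 and 73 in the KO-labelled pair. These genes were chosen after their values were seen.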
